A study of Mus musculus with 4 samples.

Results

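The genes described here are 52 mouse genes of DNA repair and of the DNA damage checkpoint, compared between Ly6G+ bone marrow cells of lal-/- and lal+/+ mice. A gene entered by its name in a list of repair genes, not by its values. The probe sets of the array that name exactly 1 gene measured 51 of the 52 genes, out of 19938 genes measured in all. Xrcc2 had no such probe set. Of the 51 genes, 49 had 1 probe set and 2 had several (Bard1 and Nbn), and the probe set with the highest mean stood for the gene. By repair route, 11 genes (10 measured) belong to homologous recombination, 11 to the Fanconi pathway, 4 to mismatch repair, 7 to base excision repair, 6 to nucleotide excision repair, 5 to end joining and 8 to the damage checkpoint.

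The series holds 4 arrays, 2 of lal+/+ (wild type) and 2 of lal-/- mice, which lack lysosomal acid lipase (LAL), the enzyme that cleaves cholesteryl esters and triglycerides in the lysosome. All mice were 5 months old and came from 10 generations of back-crossing to FVB/N, and no treatment is given for either genotype. The loss of LAL is in every cell of the animal, not in the myeloid cells alone. The cells are called myeloid-derived suppressor cells and are given as CD11b+ Gr-1+ in the labels and as selected with an antibody to Ly6G in the methods. The methods state a number of mice for the cell isolation but not how they were divided over the arrays or whether they were pooled, so the p-values measure the spread between arrays, which may be technical.

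Cells repair DNA by routes that each take a kind of lesion. Base excision repair removes single damaged bases, nucleotide excision repair removes bulky adducts, and mismatch repair corrects errors of replication. Breaks of both strands are joined directly by end joining, at any time of the cycle, or copied from the sister chromatid by homologous recombination, in S and G2 phase, and the Fanconi pathway unhooks crosslinks between the strands at stalled forks. The kinases Atm, Atr and DNA-PKcs sense the damage, and the kinases Chek1 and Chek2 carry the signal to the cell cycle.

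The labels were checked first. Lipa, which encodes LAL, had log2 levels of 9.50 and 9.05 in lal+/+ and of 7.37 and 7.49 in lal-/- cells. Whether its probe set lies in the disrupted stretch of the gene is not known here, so it checks the labels only in part. Ly6g, the antigen of the selection, was higher in lal-/- cells by 2.88 on the log2 scale, and Itgam, which encodes CD11b, by 1.19, and both were called. Markers of other cell types differed between the genotypes. Of 8 B cell markers 7 were called lower in lal-/- cells, and the mean log2 level of the list was 9.43 and 9.24 in lal+/+ against 6.10 and 6.23 in lal-/- cells. Of 7 monocyte and macrophage markers 6 were called lower, with mean levels of 9.61 and 9.55 against 7.03 and 7.06. Of 9 neutrophil granule markers 8 were called higher, with mean levels of 8.98 and 8.94 against 11.18 and 11.11. Of 6 T and NK cell markers 3 were called lower and 1 higher, of 6 stem and progenitor markers 1 was called higher, of 5 eosinophil, basophil and mast cell markers 2, and of 4 erythroid markers none. No B cell, monocyte or macrophage marker lay below the silent level in the lal+/+ cells. In RNA of whole cell populations, fewer cells of a type and less RNA per cell cannot be told apart, and the part of these markers' cells in the results below was not tested.

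Of the 51 measured repair genes, 26 passed the test at an adjusted p under 0.05 (limma, adjusted over all probe sets naming 1 gene), 16 of them higher and 10 lower in lal-/- cells. Among all 19938 genes 29.6% passed, 19.8% higher and 9.85% lower, against 51%, 31.4% and 19.6% of the repair genes. Called genes, which also changed at least 2-fold, were 3 higher (Neil3, Xrcc4 and Brip1) and 4 lower (Parp1, Atm, Xrcc5 and Prkdc). That is 5.88% and 7.84% of the repair genes, beside 7.56% of all genes called higher and 3.24% called lower. The median log2 fold change (lal-/- minus lal+/+) was 0.23 over the repair genes and 0.085 over all genes. In 41 of the 51 genes the 2 lal-/- arrays lay wholly above (26 genes) or wholly below (15 genes) the 2 lal+/+ arrays, which also held for 65.7% of all genes, 41.6% above and 24.1% below. With 2 arrays against 2, an exact permutation test of a single gene cannot give a two-sided p below 0.333, so the calls rest on the spread that limma shares across genes.

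**Figure D1:**
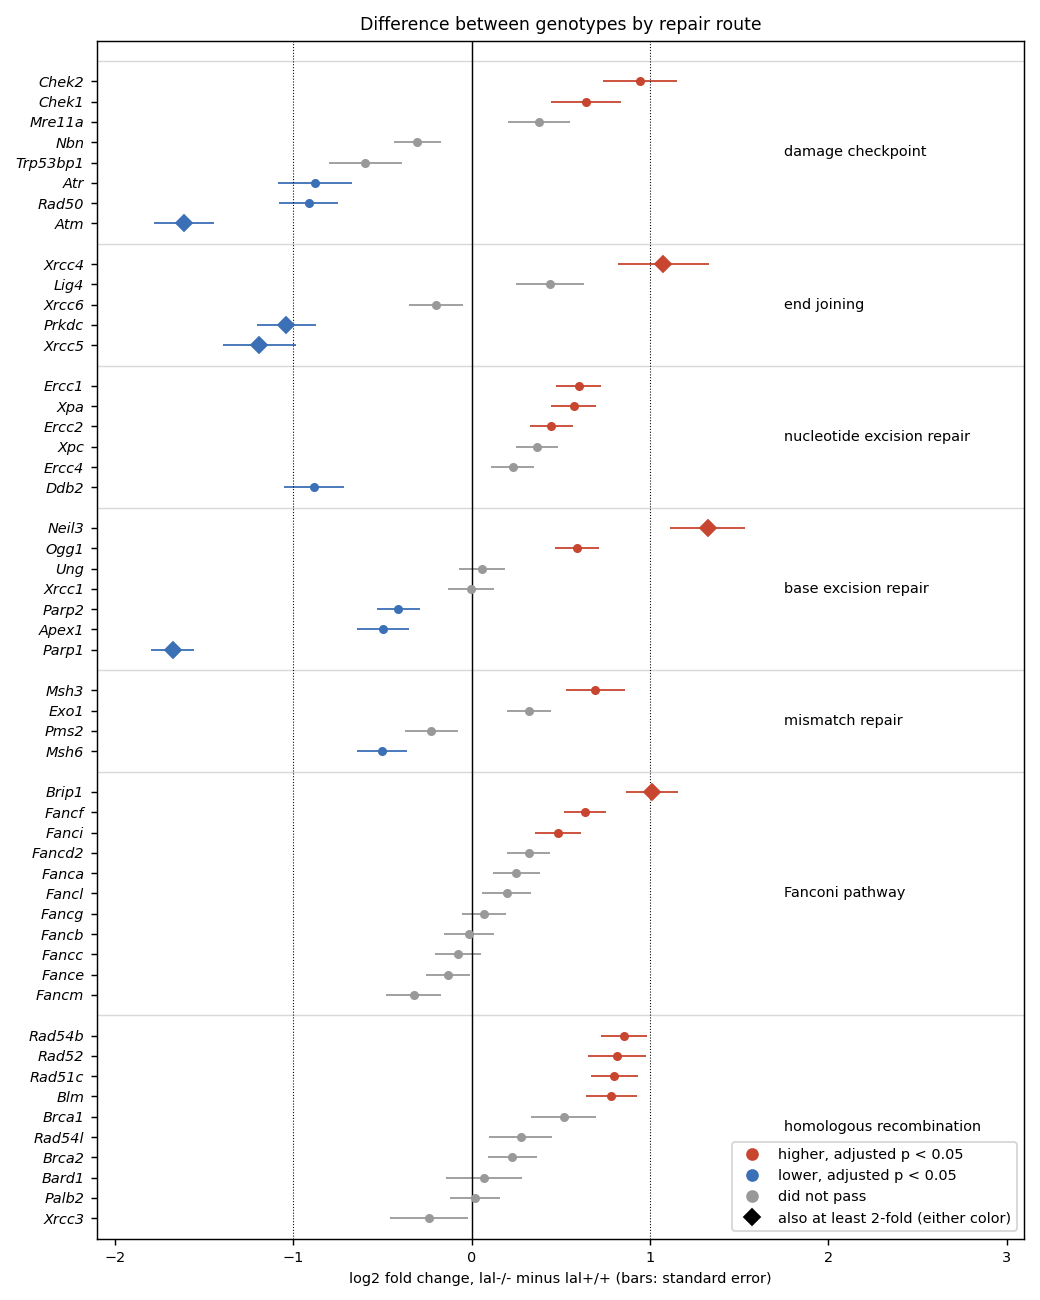
Log2 fold change of each repair and checkpoint gene (lal-/- minus lal+/+, horizontal axis), grouped by route, with bars for the standard error, colour for direction at an adjusted p under 0.05 and diamonds for genes that also changed at least 2-fold. The values run from -1.68 for Parp1 to 1.32 for Neil3, and 3 diamonds lie to the right and 4 to the left.

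The counts differed in direction by route. Homologous recombination had 4 genes that rose and none that fell, with a median of 0.40, and the Fanconi pathway had 3 that rose and none that fell, with a median of 0.20. Nucleotide excision repair had 3 higher and 1 lower (median 0.41), mismatch repair 1 higher and 1 lower (median 0.048), and base excision repair 2 higher and 3 lower (median -0.0033). End joining had 1 higher and 2 lower (median -0.20), and the checkpoint genes had 2 higher and 3 lower (median -0.45). Over all genes 19.8% passed as higher and 9.85% as lower. The shares that rose in base excision repair (28.6%), the Fanconi pathway (27.3%) and mismatch repair (25%) lie near the first of these. So do those of the checkpoint (25%) and end joining (20%), while homologous recombination had 40% and nucleotide excision repair 50%. The shares that fell were 42.9% in base excision repair, 40% in end joining and 37.5% in the checkpoint. They were 25% in mismatch repair and 16.7% in nucleotide excision repair. None lower among 10 or 11 measured genes lies near 9.85%, and in such small routes 1 gene moves a share. The medians of the small routes moved with the arrays, for end joining to -0.032 without lal+/+ replicate 1, -0.38 without lal+/+ replicate 2, -0.13 without lal-/- replicate 1 and -0.40 as deposited, and for the checkpoint genes from -0.61 without lal+/+ replicate 2 to -0.32 without lal+/+ replicate 1 or lal-/- replicate 2. The differences between the routes were not tested.

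Many of these genes gave dim signals. Olfactory receptors, which blood cells do not use, gave the silent level as the 95th percentile of their 1023 probe sets, which was 6.81 in lal+/+ and 6.32 in lal-/- cells on the log2 scale. Of the repair genes 29 had a mean below it in lal+/+ cells, 18 in lal-/- cells and 15 in both (29.4%, beside 47.1% of all genes). Of all 19938 genes, 12773 lay below it in lal+/+ cells and 9618 in lal-/- cells. The level was lower in lal-/- cells, so a gene could move from below to above it with little change, as Bard1 (0.070) and Ung (0.061) did. The olfactory receptor genes themselves shifted by a median of -0.19, and 17.4% of them passed as lower and 0.591% as higher. A fall in a dim gene therefore stands beside a fall of silent probe sets on the same arrays, and a fold of a dim gene is that of the fitted values only. The lal+/+ arrays also differed from each other. Replicate 1 read above replicate 2 in all 5 end joining genes (median difference 0.55) and in all 8 checkpoint genes (median 0.42), whereas the median over all genes was -0.0053.

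**Figure D2:**
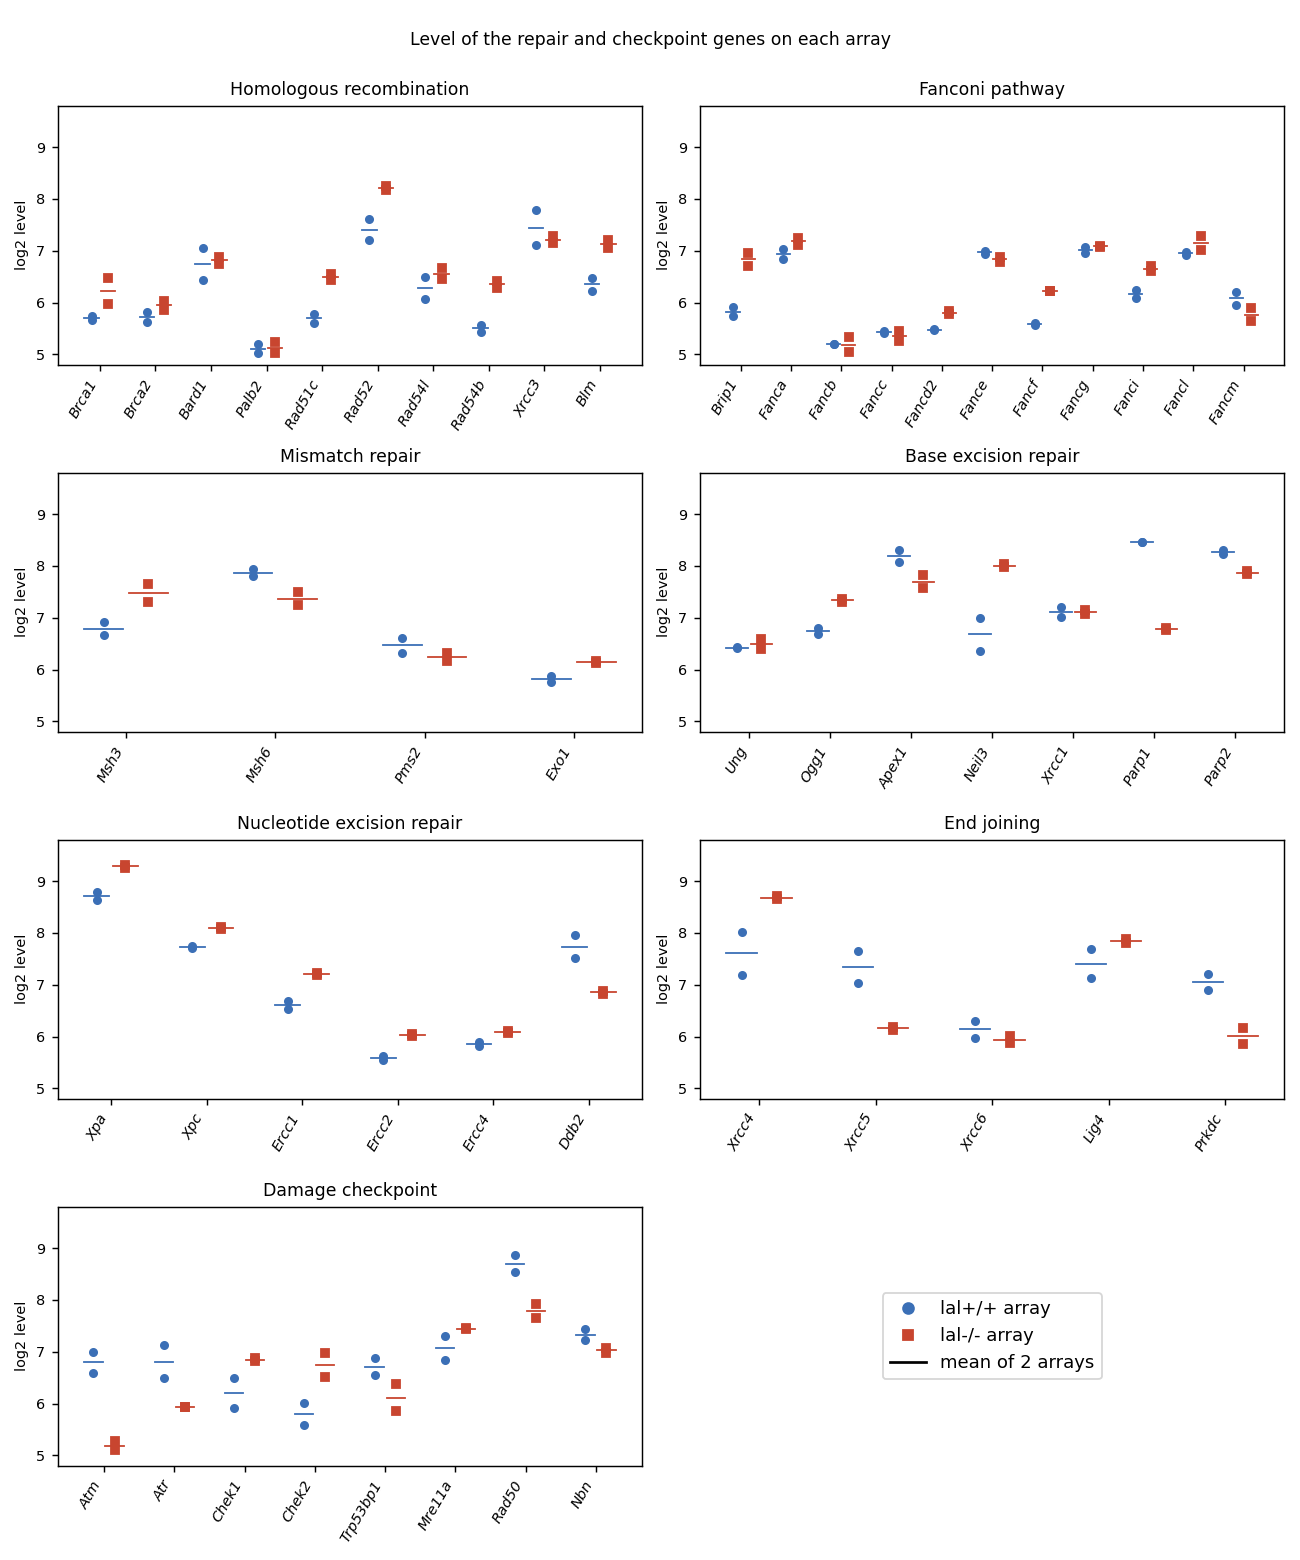
Log2 level of each gene on each of the 4 arrays (vertical axis), with circles for lal+/+ arrays, squares for lal-/- arrays and a line for the mean of 2 arrays, in 1 panel per route. Parp1 read 8.46 on both lal+/+ arrays but 6.77 and 6.80 on those of lal-/- cells, while Xrcc4 spread from 7.18 to 8.02 within lal+/+.

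RefSeq promoters of GRCm38.p6 (250 bases before to 50 after the start) were found for 43 of the 52 genes, as 46 promoters. None was found for Prkdc, Xpc, Rad50, Xrcc2, Fancd2, Nbn, Rad54b, Exo1 and Ddb2. Since many repair genes are known as genes of dividing cells, 3 kinds of letters known from cell cycle promoters were searched on both strands. These were 4 words of the E2F site (TTTCCCGC, TTTCGCGC, TTTGCCGC and TTTGGCGC), the CCAAT box and the CHR element TTTGAA, and no word contains another. An E2F word stood in 9 of the 46 promoters (19.6%), beside 2.99% of the promoters of measured genes and 2.26% of all 32851 promoters. It stood in 7 of 13 promoters of S phase genes and 1 of 11 of G2 and M phase genes. The CCAAT box stood in 26 of 46 (56.5%), beside 37.4% of all promoters. The CHR element stood in 1 of 46 (2.17%), beside 14.8% of the promoters of measured genes and 17.9% of all promoters. It stood in 8 of 11 promoters of G2 and M phase genes. Split by outcome, an E2F word stood in 4 of 16 promoters of the genes that rose, 1 of 7 of those that fell and 4 of 23 of the others. The CCAAT box stood in 7 of 16 (43.8%), 4 of 7 (57.1%) and 15 of 23 (65.2%) in the same order. These promoters belong to 15, 7 and 21 genes. Both starts of Rad51c are among the 4 with an E2F word, and both starts of Rad54l among the 15 with a CCAAT box. A match of letters describes a promoter and shows no binding.

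Among the sensors of damage, the messages of the large kinases fell. Atm, the kinase that answers double-strand breaks, read 7.00 and 6.60 in lal+/+ and 5.10 and 5.27 in lal-/- cells. The groups were far apart, and the log2 fold change was -1.61 (standard error, SE, of 0.17, limma adjusted p = 6.26e-04), a 3.06-fold fall. The Atm mean lay below the silent level in both genotypes, although replicate 1 of lal+/+ read above it. Its fall exceeded the 5th percentile of the olfactory receptor genes (-0.97), but 47 of those 1015 genes were also called lower. Atr, which answers single-stranded DNA at stalled forks, read 7.13 and 6.50 in lal+/+ and 5.93 and 5.94 in lal-/- cells. Its log2 fold change was -0.88 (SE 0.21, limma adjusted p = 0.0190), and it was -1.24 without lal+/+ replicate 2 and -0.56 without lal+/+ replicate 1. Prkdc, which encodes DNA-PKcs, the kinase of end joining, read 7.21 and 6.89 against 5.86 and 6.16, a log2 difference of -1.04 (SE 0.17, limma adjusted p = 0.00379). The means of Atr (only just) and Prkdc lay above the silent level in lal+/+ cells and below it in lal-/- cells. Without lal+/+ replicate 1 the Prkdc change was -0.89, and without lal-/- replicate 1 it was -0.86, both below 2-fold and past the adjusted p.

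Of the MRN complex, which binds broken ends and recruits Atm, Rad50 alone passed on the probe sets used, and the differences between its members were not tested. Rad50, the arm of the complex, read 8.87 and 8.54 in lal+/+ cells and 7.65 and 7.92 in lal-/- cells, all above the silent level. Its log2 fold change was -0.91 (SE 0.17, limma adjusted p = 0.00638). When the arrays were only shifted to a common median, the change of Rad50 was -0.46 (limma adjusted p = 0.102). Mre11a, the nuclease of the complex, did not pass (0.38, limma adjusted p = 0.151). Nbn, its link to Atm, did not pass on its brighter probe set (-0.30, adjusted p = 0.136) but rose on its other one (0.54, limma adjusted p = 0.0360), so the 2 probe sets disagreed in sign. Trp53bp1, the mediator that steers breaks to end joining, read 6.87 and 6.55 against 6.39 and 5.85 and did not pass (-0.60, SE 0.21, limma adjusted p = 0.0713), with a 95% interval of -1.09 to -0.11 and means below the silent level in both genotypes.

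The effector kinases ran the other way. Chek2, the target of Atm, read 6.02 and 5.58 in lal+/+ cells and 6.51 and 6.97 in lal-/- cells, a log2 difference of 0.94 (SE 0.21, limma adjusted p = 0.0146). It was no longer past the threshold without lal+/+ replicate 2 (0.75, limma adjusted p = 0.0533) or without lal-/- replicate 2 (0.70, limma adjusted p = 0.0585). Chek1, the target of Atr, read 6.49 and 5.92 against 6.88 and 6.82, a log2 difference of 0.64 (SE 0.20, limma adjusted p = 0.0472). Chek1 did not pass in limma without lal+/+ replicate 2 (0.37, adjusted p = 0.0894), lal-/- replicate 1 (adjusted p = 0.131) or lal-/- replicate 2 (adjusted p = 0.102). Both kinases were below the silent level in lal+/+ cells and above it in lal-/- cells, where it was lower (6.32 against 6.81). The lal-/- mean of Chek2 (6.74) lay below the lal+/+ level, and that of Chek1 (6.85) lay just above it. The 100 bases before the start of a falling and of a rising kinase gene are shown for comparison, with CCAAT boxes on either strand (CCAAT or ATTGG) in capitals, Atm on the minus strand of chr9:53536672-53536771 and Chek2 on the plus strand of chr5:110839883-110839982.
Atm: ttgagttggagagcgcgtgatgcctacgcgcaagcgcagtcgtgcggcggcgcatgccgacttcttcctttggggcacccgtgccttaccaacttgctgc
Chek2: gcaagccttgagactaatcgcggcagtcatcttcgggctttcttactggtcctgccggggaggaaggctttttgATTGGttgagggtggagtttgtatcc
Chek2 also held an E2F word at position -152, counted from the start. Atm held none in the promoter and had its 1 CCAAT box at position -165. The promoters of Chek1, which rose, and of Atr, which fell, held none of the searched letters.

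Of the end joining genes 2 fell, Prkdc and Xrcc5, and 1 rose, Xrcc4. Xrcc5, which encodes Ku80, the subunit of the Ku ring that holds DNA-PKcs, read 7.65 and 7.04 in lal+/+ cells and 6.12 and 6.19 in lal-/- cells. Its log2 fold change was -1.19 (SE 0.20, limma adjusted p = 0.00486), a 2.28-fold fall to below the silent level. Without lal+/+ replicate 1 the fall was -0.90, and without lal+/+ replicate 2 it was -1.57. Xrcc6, which encodes Ku70, the partner of Ku80, lay below the silent level in both genotypes and did not pass (-0.20, limma adjusted p = 0.380), with a 95% interval of -0.57 to 0.17. Xrcc4, the scaffold of the ligase, read 8.02 and 7.18 in lal+/+ cells and 8.65 and 8.71 in lal-/- cells, a log2 difference of 1.08 (SE 0.26, limma adjusted p = 0.0195). It had the widest standard error of the repair genes, and its change was 1.54 without lal+/+ replicate 1 and 0.68 without lal+/+ replicate 2. With quantiles of the probe sets naming 1 gene Xrcc4 did not pass (0.83, limma adjusted p = 0.0712). Lig4, the ligase itself, did not pass (0.44, limma adjusted p = 0.133), but it passed in limma at a common median (0.76, adjusted p = 0.0115), as deposited (0.58, adjusted p = 0.0378) and without lal+/+ replicate 1 (0.74, adjusted p = 0.00913). The 100 bases before Xrcc5 on the plus strand of chr1:72307321-72307420 held none of the searched letters, whereas those before Xrcc6 on the plus strand of chr15:82016269-82016368 held an E2F word, in capitals.
Xrcc5: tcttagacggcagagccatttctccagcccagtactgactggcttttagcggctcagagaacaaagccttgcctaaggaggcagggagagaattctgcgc
Xrcc6: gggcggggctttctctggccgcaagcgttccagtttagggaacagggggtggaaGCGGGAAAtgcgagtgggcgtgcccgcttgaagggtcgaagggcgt
They are shown because the 2 genes encode the subunits of 1 heterodimer, and the difference between their changes was not tested. Outside the stretches shown, the promoter of Xrcc5 held a CCAAT box at position -169 and that of Xrcc6 one at position 27.

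In homologous recombination, Rad54b, Rad52, Rad51c and Blm rose, each by under 2-fold. Rad54b, a motor protein of strand exchange, read 5.56 and 5.44 in lal+/+ cells and 6.29 and 6.42 in lal-/- cells (0.85, SE 0.13, limma adjusted p = 0.00280). Rad52, which anneals single strands, read 7.61 and 7.20 against 8.26 and 8.18 (0.81, SE 0.16, limma adjusted p = 0.00947) and was the only one of these 4 above the silent level in both genotypes. Rad51c, a paralog of the strand exchange recombinase, read 5.78 and 5.60 against 6.55 and 6.44 (0.80, SE 0.13, limma adjusted p = 0.00418). In these 3 genes, as in Blm, the lal-/- arrays lay wholly above the lal+/+ arrays, which also held for 41.6% of all genes. Blm, the helicase of Bloom syndrome, read 6.48 and 6.22 against 7.06 and 7.20 (0.78, SE 0.14, limma adjusted p = 0.00666). All 4 passed under every moderated alternative, and Rad52 was past 2-fold at a common median (1.17) and without lal+/+ replicate 1 (1.05).

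The tumour suppressors of the route did not pass on their brightest probe sets. Brca1, which promotes resection and the loading of the recombinase, read 5.67 and 5.73 in lal+/+ cells and 5.97 and 6.47 in lal-/- cells. The groups did not overlap, but the log2 fold change of 0.52 did not pass (SE 0.18, limma adjusted p = 0.0744), and the lal-/- arrays were 0.51 apart. Without lal-/- replicate 1 it was 0.76 (limma adjusted p = 0.0220), and without lal-/- replicate 2 it was 0.26. Brca2 (0.23) and Palb2 (0.020), which bring the recombinase to the break, lay below the silent level in both genotypes and did not pass. Bard1, the partner of Brca1, did not pass on its brightest probe set (0.070) or on its dimmest (0.042) but rose on the middle one (0.97, limma adjusted p = 0.00229). Rad54l (0.28) and Xrcc3 (-0.24) did not pass. The second of the 2 RefSeq starts of Rad51c, on the minus strand of chr11:87404955-87405054, carries an E2F word that runs across the start, so that only its first bases appear, in capitals. The Brca1 sequence, on the minus strand of chr11:101551956-101552055, has its CCAAT box in capitals.
Rad51c: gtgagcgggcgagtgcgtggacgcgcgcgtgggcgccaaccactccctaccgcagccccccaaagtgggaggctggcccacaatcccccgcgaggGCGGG
Brca1: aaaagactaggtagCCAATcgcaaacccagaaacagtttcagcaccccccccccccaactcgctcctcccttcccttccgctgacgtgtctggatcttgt
Of 11 promoters of this route 4 held an E2F word (2 of Rad51c and 1 each of Brca2 and Bard1), and of these 3 genes Rad51c alone rose on the probe set that stood for the gene, while Bard1 rose on another.

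In the Fanconi pathway, Brip1, Fancf and Fanci rose and the other 8 genes did not pass. Brip1, the helicase FANCJ that binds Brca1, read 5.92 and 5.73 in lal+/+ cells and 6.96 and 6.71 in lal-/- cells. Its mean moved from below to above the silent level, which was lower in lal-/- cells (6.32 against 6.81). The log2 fold change of Brip1 was 1.01 (SE 0.15, limma adjusted p = 0.00239), just past 2-fold. It was past 2-fold in 9 of the 13 moderated alternatives. It fell short at 0.95 without lal+/+ replicate 2 and at 0.86 without lal-/- replicate 1. As deposited it was 0.86, and with quantiles of the probe sets naming 1 gene 0.94, also short of 2-fold. Fancf, an adaptor of the core complex, rose by 0.64 (limma adjusted p = 0.00706), with means (5.59 and 6.23) below the silent level in both genotypes. Fanci, a subunit of the clamp that the core complex marks with ubiquitin, rose by 0.49 (limma adjusted p = 0.0291). Fancf passed in 11 of 12 moderated alternatives, failing without lal-/- replicate 2 (0.63), and Fanci in 7 of 13. Fanci failed without lal+/+ replicate 1 (0.41), lal-/- replicate 1 (0.43) or lal-/- replicate 2 (0.52). In limma Fanci also failed as deposited (adjusted p = 0.109), with unnamed probe sets in the adjustment (adjusted p = 0.0573) and with a replicate block (adjusted p = 0.0508). Fancd2, its partner in that clamp, read 5.49 and 5.47 against 5.77 and 5.83 and did not pass (0.32, SE 0.12, limma adjusted p = 0.0879). The Fancd2 arrays did not overlap, but every reading lay below the silent level.

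None of the other core complex genes passed. Fanca (0.25), Fancl (0.20), the ubiquitin ligase, and Fancg (0.069) had positive values, and Fancb (-0.014), Fancc (-0.073) and Fance (-0.13) negative ones. Fancm, the motor protein that anchors the complex to DNA, had the lowest value (-0.32, limma adjusted p = 0.161). The CCAAT box stood in 7 of the 10 promoters of the route found. The 100 bases before Brip1 on the minus strand of chr11:86201194-86201293 held 3 of them in the reverse direction, and those before Fancf on the minus strand of chr7:51862268-51862367 held 2 in the forward direction, in capitals.
Brip1: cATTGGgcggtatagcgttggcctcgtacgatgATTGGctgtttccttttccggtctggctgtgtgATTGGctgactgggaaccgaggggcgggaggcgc
Fancf: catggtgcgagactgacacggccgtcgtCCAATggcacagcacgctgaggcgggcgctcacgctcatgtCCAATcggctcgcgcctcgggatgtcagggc
Fanca, which did not pass, also held 2 such boxes within 100 bases of its start, and the promoter of Fanci, which rose, held none.

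Base excision repair held both ends of the range. Parp1, which binds nicked DNA and builds chains of ADP-ribose, read 8.46 and 8.46 in lal+/+ and 6.77 and 6.80 in lal-/- cells, all above the silent level. The log2 fold change was -1.68 (SE 0.12, limma adjusted p = 1.66e-04), a 3.20-fold fall, and it was between -1.87 and -1.37 under all 13 moderated alternatives. Neil3, a glycosylase for oxidised bases that is made in dividing cells, read 7.00 and 6.36 in lal+/+ cells and 7.97 and 8.03 in lal-/- cells. It rose by 1.32 on the log2 scale (SE 0.21, limma adjusted p = 0.00355), which is 2.50-fold, and it was 1.07 to 1.68 under the alternatives. Its lal+/+ mean (6.68) lay below the silent level. Ogg1, the glycosylase for 8-oxoguanine, rose by 0.59 (limma adjusted p = 0.0113), though not past the threshold without lal-/- replicate 1 (adjusted p = 0.0909) or replicate 2 (adjusted p = 0.0634).

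Parp2, the close relative of Parp1, and Apex1, which cuts the strand beside the removed base, passed as lower with values of -0.41 (limma adjusted p = 0.0426) and -0.50 (limma adjusted p = 0.0438). Neither held when the arrays were shifted to a common median, where Parp2 was 0.028 and Apex1 -0.094. Both also failed without lal+/+ replicate 1 (limma adjusted p of 0.0780 for Parp2 and 0.115 for Apex1), without lal-/- replicate 1 (0.182 and 0.0716) and without lal-/- replicate 2 (0.250 and 0.279). Ung, which removes uracil from DNA, read 6.41 and 6.44 against 6.39 and 6.58 and did not pass (0.061, SE 0.13, limma adjusted p = 0.762), with a 95% interval of -0.25 to 0.37. Xrcc1, the scaffold that Parp1 recruits, did not pass (-0.0033), with a 95% interval of -0.31 to 0.31. The 100 bases before the start of the gene that fell most, on the plus strand of chr1:180568791-180568890, and of the one that rose most, on the minus strand of chr8:53639066-53639165, held none of the searched letters.
Parp1: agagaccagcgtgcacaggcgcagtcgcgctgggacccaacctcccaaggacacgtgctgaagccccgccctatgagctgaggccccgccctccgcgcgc
Neil3: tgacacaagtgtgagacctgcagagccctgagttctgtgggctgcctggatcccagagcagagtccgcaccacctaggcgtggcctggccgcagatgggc

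In nucleotide excision repair, 3 of the genes that act after the lesion is found rose by under 2-fold and 1 damage sensor fell. Ercc1, the partner of the nuclease that cuts on the 5′ side, rose by 0.60 (limma adjusted p = 0.0115). Xpa, which checks the opened lesion, rose by 0.57 (limma adjusted p = 0.0138). Ercc2, the helicase XPD, rose by 0.45 (limma adjusted p = 0.0315), with means (5.59 and 6.04) below the silent level in both genotypes. Xpa was past 2-fold at a common median (1.17, limma adjusted p = 1.24e-04) and did not pass with quantiles of the probe sets naming 1 gene (0.32, limma adjusted p = 0.127). Each of the 3 genes failed without lal-/- replicate 1 and without lal-/- replicate 2, where the adjusted p was 0.0801 and 0.0674 for Ercc1, 0.0979 and 0.0676 for Xpa and 0.149 and 0.185 for Ercc2 in limma, and Ercc2 also failed without lal+/+ replicate 2 (0.0679). Ercc4, which encodes the nuclease, did not pass (0.23, limma adjusted p = 0.200).

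Of the recognition factors 1 passed, and the difference between them was not tested. Ddb2, which finds ultraviolet photoproducts in chromatin, read 7.95 and 7.52 in lal+/+ cells and 6.83 and 6.88 in lal-/- cells, all above the silent level. It fell by 0.88 on the log2 scale (SE 0.17, limma adjusted p = 0.00759) and was lower under every moderated alternative. Xpc, which finds distorted DNA, read 7.71 and 7.75 against 8.12 and 8.08. The Xpc arrays did not overlap, but its 0.37 did not pass (SE 0.12, limma adjusted p = 0.0588). In limma it passed at a common median (0.77, adjusted p = 0.00180), as deposited (0.59, adjusted p = 0.00867) and when dimmer probe sets were left out (adjusted p = 0.0357).

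The recognition partners of mismatch repair went in opposite directions. Msh3, the partner for larger loops, read 6.91 and 6.67 in lal+/+ cells and 7.31 and 7.66 in lal-/- cells, a log2 difference of 0.69 (limma adjusted p = 0.0192). Msh6, the partner for single mismatches, read 7.94 and 7.80 against 7.25 and 7.50, a log2 difference of -0.50 (SE 0.14, limma adjusted p = 0.0359). The difference between the 2 genes was not tested. Msh6 was -0.19 when the arrays were shifted to a common median (limma adjusted p = 0.445), and it failed without lal+/+ replicate 1 (adjusted p = 0.0850) and without either lal-/- array (0.265 and 0.0676). Msh3 failed without lal+/+ replicate 2 (adjusted p = 0.0627) and without lal-/- replicate 2 (0.133). Exo1, the exonuclease of the route, read 5.76 and 5.88 against 6.17 and 6.12, all below the silent level, and did not pass (0.32, SE 0.12, limma adjusted p = 0.0965). Pms2, the nicking partner, did not pass (-0.22). The promoters of both Msh3 and Msh6 held an E2F word.

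Across the 26 genes that passed, 11 passed under every moderated alternative. These were Rad51c, Rad52, Rad54b, Blm, Brip1 and Neil3 among the genes that rose and Parp1, Ddb2, Xrcc5, Prkdc and Atm among those that fell. The other 15 failed under at least 1, and 8 genes that did not pass did so under at least 1 (Lig4, Xpc and Trp53bp1 in 3 each, Mre11a in 2 and Brca1, Xrcc3, Fancm and Nbn in 1 each). Of the 7 called genes, Neil3, Parp1 and Atm alone were past 2-fold under all of them. The number of called genes moved with single lal+/+ arrays, being 5 higher and 2 lower without replicate 1 and 1 higher and 7 lower without replicate 2. Shifting the arrays to a common median gave 5 higher, and quantiles of the probe sets naming 1 gene gave 1 higher.

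**Figure D3:**
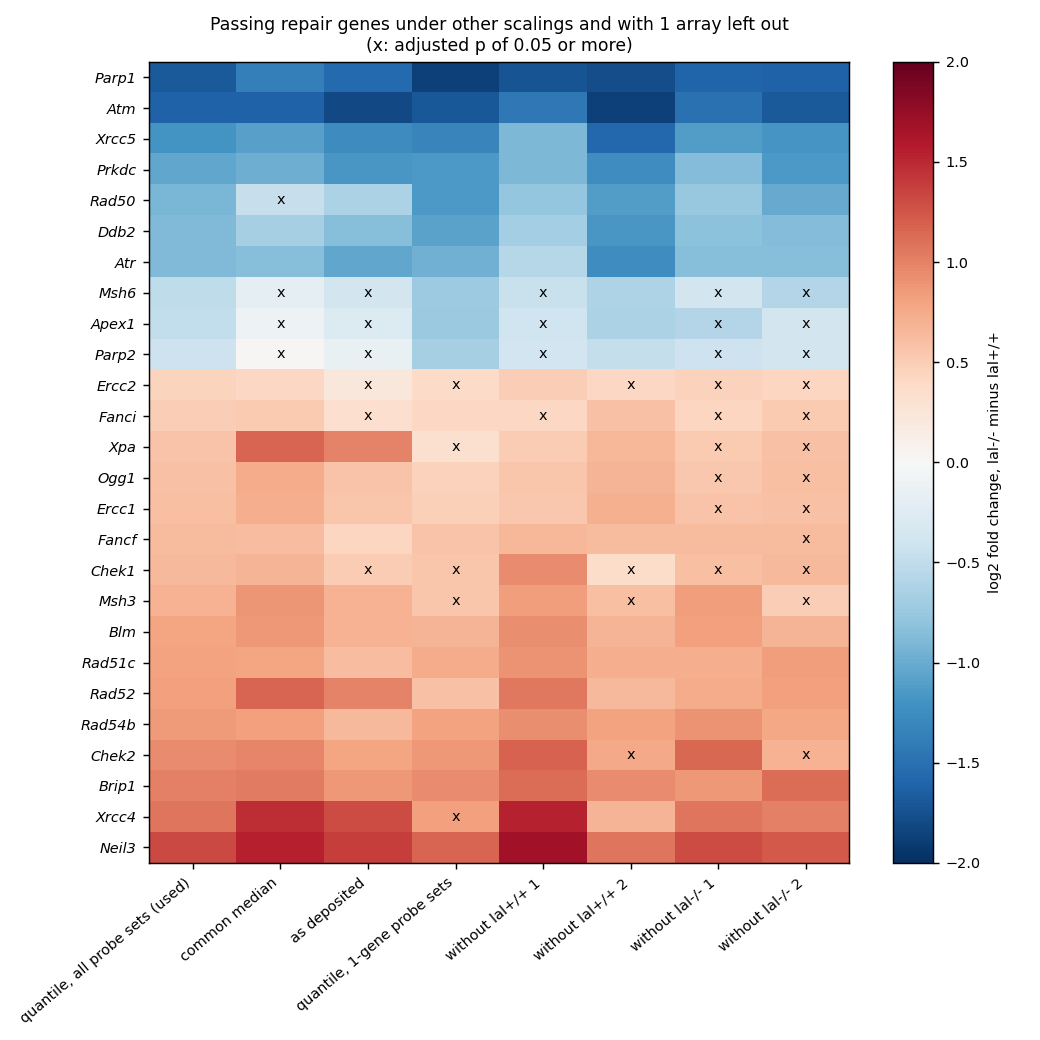
Log2 fold change (colour scale, lal-/- minus lal+/+) of the 26 genes that passed, 1 per line, as used, under 3 other scalings and with each array left out, where a cross marks an adjusted p of 0.05 or more. Parp1, Atm, Xrcc5, Prkdc and Ddb2 at the top and Neil3, Brip1, Rad54b, Rad52, Rad51c and Blm at the bottom bear no cross, and Parp2 turns from -0.41 to 0.028 at a common median.

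A further list of 75 genes of the same routes, 67 of them measured, had 26 that rose (38.8%, beside 19.8% of all genes) and 4 that fell (5.97%, beside 9.85%), with a median of 0.34. Past 2-fold were 7 higher (10.4%, beside 7.56% of all genes) and none lower, at adjusted p under 0.05 in limma. They were Gen1 (1.67), a resolvase of crossed strands, Polh (1.37), the polymerase that copies past photoproducts, Lig1 (1.12) and Lig3 (1.02), ligases that seal nicks, Usp1 (1.11), which removes ubiquitin from the Fanconi clamp, Rad17 (1.09), the loader of the checkpoint clamp, and Nhej1 (1.05), the partner of Xrcc4. In the Atr branch of the checkpoint, Rad9a (0.82) and Hus1 (0.71) of the clamp passed as higher. So did Topbp1 (0.54), the activator, Clspn (0.99), the adaptor for Chek1, and Tipin (0.92). Rad1 (-0.000855), also of the clamp, and Timeless (0.35) did not pass, whereas Atrip (-0.65), the subunit that holds Atr, passed as lower. Rev3l (-0.69) and Poli (-0.65), polymerases of damage bypass, and Mdc1 (-0.43), the mediator at breaks, were the other 3 that fell. Under quantiles of the probe sets naming 1 gene 2 of these 67 genes were called higher, and at a common median 15.

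The cycle genes had larger medians than any repair route. Of 13 measured S phase genes 5 were called higher (Rrm2 at 1.69, Tyms at 1.38 and Rrm1 at 1.34 the most), with a median of 0.81, and of 13 measured G2 and M phase genes 12, with a median of 1.66 (Bub1 at 2.57, Cdk1 at 2.49 and Kif11 at 2.35 the most). Of 14 measured targets of p53, the transcription factor that damage activates, 5 passed as higher, and 1 of these, Plk3 (1.16), changed at least 2-fold. That is 35.7% passed as higher and 7.14% called higher, beside 19.8% and 7.56% of all genes. Mdm2, which limits p53, read 8.95 and 8.83 against 9.56 and 9.60 and rose by 0.69 (SE 0.12, limma adjusted p = 0.00579). Cdkn1a, the p21 inhibitor of the cycle, was read only by a probe set shared with 4930567H12Rik, where the value was 0.39 (SE 0.12, limma adjusted p = 0.0898 over all probe sets). Without lal+/+ replicate 1 no p53 target was past 2-fold. The part of the cycle genes' change in the change of the repair genes was not tested.

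**Figure D4:**
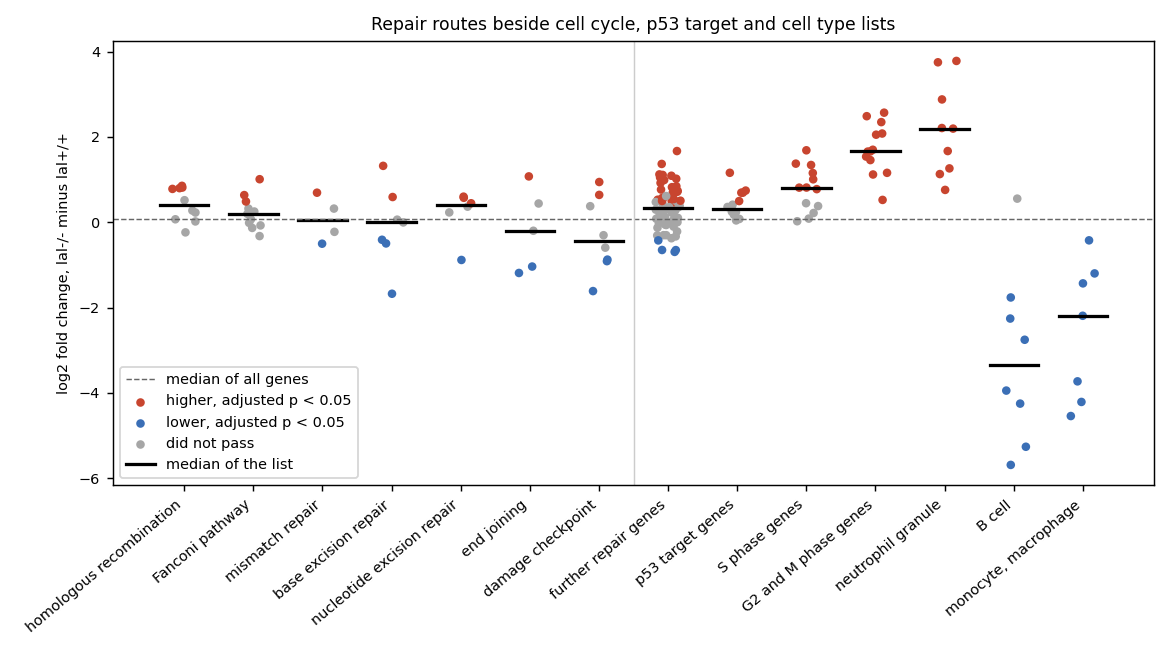
Log2 fold change (vertical axis, lal-/- minus lal+/+) of every measured gene in each repair route, left of the grey line, and in the further, cycle, p53 target and cell type lists, right of it, with a bar for the list median and a dashed line for the median of all genes (0.085). The route medians lie between -0.45 and 0.41, below the medians of the S phase genes (0.81) and the G2 and M phase genes (1.66), and the medians of the B cell and the monocyte and macrophage markers lie below 0.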

How the data were processed

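Gene expression was measured on 4 Affymetrix Mouse Gene 1.0 ST arrays. Per the methods, the authors obtained log2 levels from the scans with the RMA algorithm of Partek Genomics Suite, and the submitters' processing notes also name GCOS 1.1. The deposited values are log2 levels of 35557 probe sets, and every sample column was used. A table of GEO's platform annotation named 1 gene for 21789 probe sets and several for 1621, and 12147 were not listed. The labels and the methods differ on the labelling kit, and its effect was not tested. The deposited column medians differed by 0.208, above the limit of 0.1, so the columns were quantile normalized over all probe sets. limma 3.58.1 in R 4.3.3 fitted genotype to each probe set naming 1 gene, with variances moderated by eBayes (prior degrees of freedom 4.83, residual 2) and Benjamini-Hochberg adjustment. No filter on low levels was used. Before adjustment, 40.9% of these probe sets lay under a p of 0.05. The procedure was tested on simulated data. Array values are quantile normalized log2 levels, and standard errors and 95% intervals are those of the moderated fit. With arrays, the number of arrays limits the precision.

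The members, the gene lists and the alternatives were chosen with earlier results of these data known. Array values were given for the called genes of each route and for a fixed group of members whatever their result (such as Brca1, Fancd2 and Ung). Those of Rad50, Rad51c, Rad52, Rad54b, Blm and Msh3 were added after their values were seen. Of the further list the genes past 2-fold are named, and the Atr branch genes and those that fell were named after their values were seen. Other scalings tried were a common median and the values as deposited. The test was rerun over probe sets with a mean of at least 6.27 (their median), with unnamed probe sets included in the adjustment, with a variance trend and robust estimation, without moderation (an ordinary linear model) and with a replicate block. Thresholds were changed to any fold and to an adjusted p under 0.01, genes were given by the average of their probe sets, and each array was left out in turn. A crossed block and quantiles of the probe sets naming 1 gene were added after seeing the data. Moderated alternatives are those of scaling, filter, adjustment, variance trend, block, probe sets and arrays left out, 13 in all, and 12 for a gene below the median level.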

Additional observations from a re-analysis of the deposited data

How the results depend on the processing

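Of all genes 1508 were called higher and 646 lower, and 2620 higher and 466 lower at a common median, 2013 and 632 as deposited and 1050 and 871 with quantiles of the probe sets naming 1 gene, where the median of all genes was 0.12, -0.055 and 0.0065. Without a fold threshold 3938 genes passed as higher and 1963 as lower. The ordinary linear model called 0 genes in every list (5691 genes had an unadjusted p under 0.05). The repair genes called higher were 5 at a common median, 1 with quantiles of the probe sets naming 1 gene, 16 with no fold threshold and 1 to 5 with an array left out, and those called lower were 10 with no fold threshold and 2 to 7 with an array left out. The median of the repair genes was 0.043 as deposited, 0.13 at or above the median level and 0.11 with quantiles of the probe sets naming 1 gene. The median of homologous recombination was 0.21, 0.28 and 0.33 in the same order, 0.44 with the mean of the probe sets and 0.34 to 0.49 with an array left out. The Fanconi median was 0.27 at a common median, 0.088 as deposited, 0.23 at or above the median level, 0.061 with quantiles of the probe sets naming 1 gene and 0.13 to 0.31 with an array left out. The mismatch repair median was -0.12 as deposited and -0.22 at or above the median level. The base excision repair median was 0.087 at a common median, -0.093 as deposited, -0.15 with quantiles of the probe sets naming 1 gene and -0.10 to 0.050 with an array left out. The nucleotide excision repair median was 0.57, 0.47 and 0.25 at a common median, at or above the median level and with quantiles of the probe sets naming 1 gene. Of the further genes 15 were called higher at a common median, 11 as deposited, 2 with quantiles of the probe sets naming 1 gene and 26 with no fold threshold, where 4 were lower. Of the p53 targets 3 were called at a common median and as deposited, 5 with no fold threshold and 0 to 1 with an array left out. Of the S phase genes 8 passed with no fold threshold. Signs turned at a common median for Palb2 (-0.063), Xrcc3 (0.0093), Xrcc1 (0.16) and Parp2 (0.028), as deposited for Bard1 (-0.0036), Palb2 (-0.24) and Ung (-0.093), with quantiles of the probe sets naming 1 gene for Bard1 (-0.043), Palb2 (-0.020), Fancg (-0.074) and Ung (-0.016) and with the mean of the probe sets for Nbn (0.12). With an array left out the values ran from -0.25 to 0.40 for Bard1, -0.092 to 0.13 for Palb2, -0.59 to 0.099 for Xrcc3, -0.16 to 0.13 for Fancb, -0.16 to 0.020 for Fancc, -0.033 to 0.15 for Ung and -0.10 to 0.092 for Xrcc1. The cause of these changes was not tested. Arrays of the same replicate number did not deviate together (r = -0.16 over probe sets), so the numbers were not taken as pairs. With the replicate block 1508 genes were called higher and 646 lower, 3 and 4 of them repair genes, and 5482 genes passed in place of 5901. With the crossed pairing 6573 genes passed.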

Other observations

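Probe sets shared between genes were not tested as genes. Those that name Tdg, a glycosylase for mispaired thymine, together with its pseudogene Tdg-ps2 were higher in lal-/- cells by 1.10 to 1.25 on the log2 scale in all 4 cases. The probe set that names Rnf8, a ubiquitin ligase at breaks, together with Gm28043 was higher by 0.67. Which of the named genes these probe sets read was not tested.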
